A study of Drosophila melanogaster with 6 samples.

Results

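The genes described here are 10 components of Notch signalling that act when ovarian follicle cells differentiate: Delta (Dl), neuralized (neur), Notch (N), fringe (fng), kuzbanian (kuz), Presenilin (Psn), Suppressor of Hairless (Su(H)), Hairless (H), cut (ct) and pebbled (peb). They were chosen by name, and each of the 10 symbols matched a single row among the 17457 features of the deposited table. Transcript levels came from polyA RNA of whole Drosophila melanogaster ovaries. In 3 samples the genotype label was SamS_OE: a UASp-Sam-S transgene was switched on in germline cells by the nanos-gal4 driver. In the other 3, labelled control, the driver was present but the docking site for the transgene was empty. Both groups therefore carried nanos-gal4, and the driver acts in the germline, not in the somatic follicle cells. The age of the flies was not given in the sources used here. Sam-S encodes the synthetase of S-adenosylmethionine, which donates methyl groups to nucleic acids, proteins and small molecules. Each group had replicates 1, 2 and 3, and in the labels the batch number is the same as the replicate number. Nothing stated how the flies were divided into replicates, so p-values measure the spread between these samples, which may be partly technical.

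In the egg chamber the germline presents the ligand Delta to the follicle cells around it, which carry the receptor Notch. The bound receptor is cut by a surface protease and then by gamma-secretase, and the freed intracellular part joins the DNA-binding protein Su(H) in the nucleus. In follicle cells this signal ends the mitotic divisions and starts endocycles, rounds of DNA replication without division. Cut protein marks the dividing follicle cells, while Hindsight, the zinc finger protein encoded by peb, appears once Notch is active and represses cut. Notch is also used earlier in the ovary, in the germline stem cell niche and in the polar and stalk cells.

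Levels are in TPM, an abundance corrected for transcript length scaled to the same total in each sample, so genes can be compared with each other. Sam-S was at 1572, 1443 and 1541 TPM in SamS_OE replicates 1, 2 and 3, against 497, 512 and 483 TPM in control replicates 1, 2 and 3, so the labels and the targeted gene matched. Between 7786 and 7911 features reached 1 TPM in a sample. TPM keeps no sequencing depth, so the depth is unknown and no detection limit was computed. The 7855 features with a mean of at least 1 TPM over the 6 samples were tested, and all 10 Notch genes were among them. For ct the filter was met through the SamS_OE samples, since its control mean was 0.997 TPM.

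The 10 genes covered a wide range of levels. Hairless, the adaptor that turns Su(H) into a repressor, was the most abundant with a mean of 74.6 TPM over the 6 samples. It was followed by Psn at 67.3 TPM, Dl at 56.0 TPM, kuz at 52.9 TPM, neur at 35.8 TPM and Su(H) at 21.8 TPM. A lower group held peb at 9.26 TPM, fng at 8.87 TPM and N at 7.88 TPM, and ct was lowest at 1.18 TPM. Among tested features H lay at the 66.2 percentile of mean level, N at the 15.1 percentile and ct at the 1.43 percentile. The ranges over the 6 samples overlapped between the neighbours H and Psn, Dl and kuz, peb and fng, and fng and N. Of these, H exceeded Psn in 6 of 6 samples, whereas peb exceeded fng in 3 of 6. The ligand transcript thus stood well above that of its receptor in every sample: the ratio of Dl to N in TPM was 5.12, 7.07 and 7.47 in the SamS_OE replicates and 8.09, 7.16 and 8.42 in the control replicates.

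**Figure D1:**
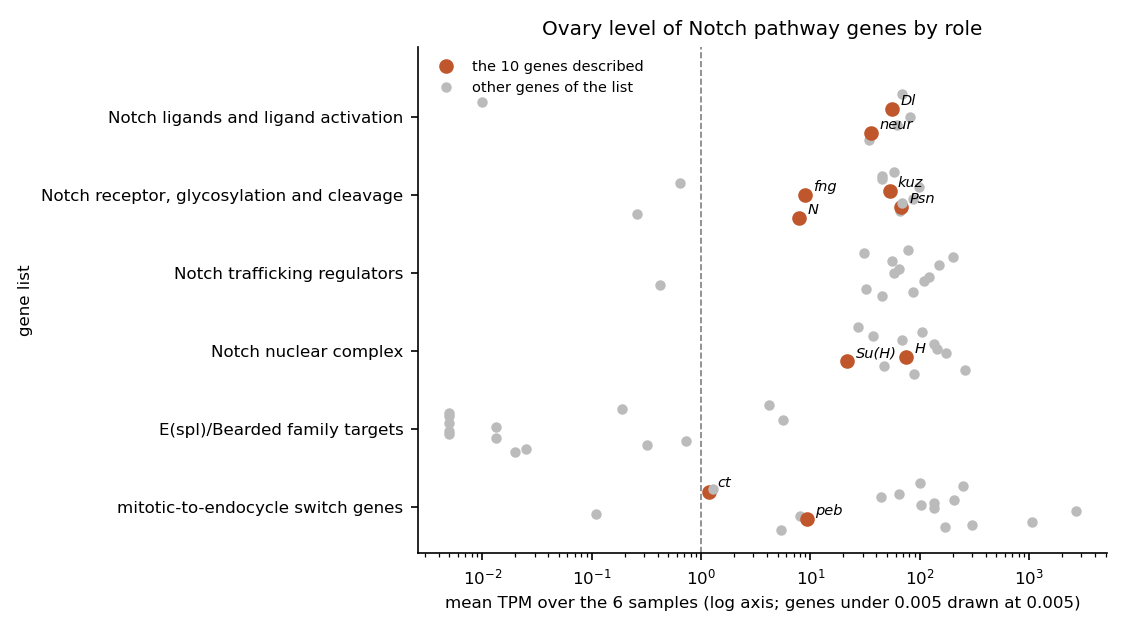
Mean TPM over the 6 samples (log axis) for the genes of 6 Notch pathway lists, 1 row per list, with the 10 genes described in orange and the other genes in grey. The dashed line marks 1 TPM: N and fng sit near 8 to 9 TPM, left of most other genes for the receptor, and most E(spl) and Bearded family genes sit below 1 TPM.

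The samples were whole ovaries, so each value is an average over germline, follicle and muscle cells, and fewer cells of a type cannot be told apart from less RNA per cell. The germline marker vas and the follicle cell marker tj, both chosen here as defining markers, were present in all samples. Over the 6 samples vas ranged from 249.1 to 303.5 TPM and tj from 49.4 to 66.0 TPM. The data thus do not place any of the 10 transcripts in follicle cells.

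The comparison of SamS_OE with control ovaries asks whether overexpression in the germline goes with different levels of these transcripts. On the log2(TPM + 1) scale, 0 of the 10 genes passed an adjusted p of 0.05 in limma (two-sided, Benjamini-Hochberg over all tested features), and 0 of 10 had an unadjusted p under 0.05. Across the 13 alternative fits the first count stayed at 0, but the unadjusted p was under 0.05 for N in 2 fits and for peb in 1. Over all tested features, 0.28% passed the adjusted threshold and 6.58% the unadjusted one. An FDR under 0.05 in the authors' deposited table was found for 0 of the 10, where it was for 0.699% of all features. The unadjusted p of the authors' deposited table was under 0.05 for 2 of the 10, N and ct, where 6.72% of the tested features had such a p. The median log2 difference of the 10 genes was -0.0077, beside -0.0121 over all tested features. Of the 10, 4 lay above 0 and 6 below, where 44.0% of all tested features lay above 0. The added 1 makes fold changes of weakly expressed genes look smaller than they are, most of all for ct.

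**Figure D2:**
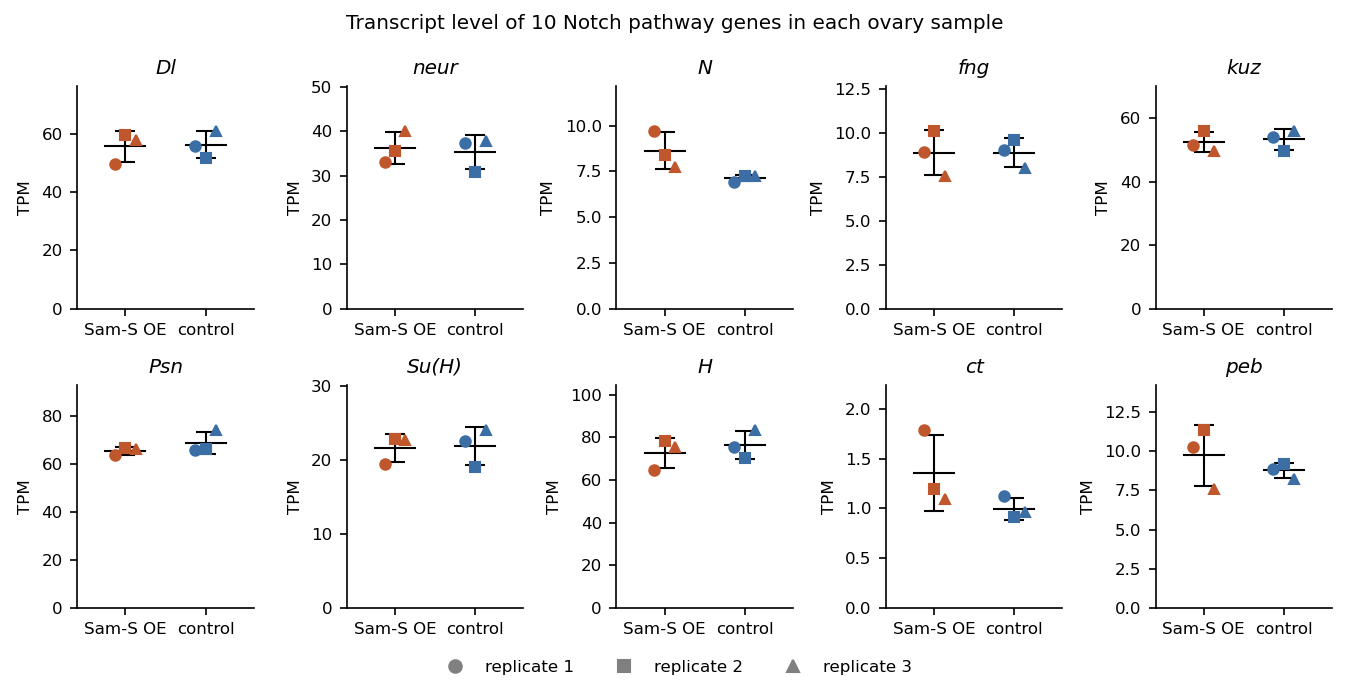
TPM of each of the 10 genes in each sample, with the SamS_OE samples at the left of each panel and the controls at the right; bars show the mean and SD (n = 3 each) and marker shapes the replicate number. The groups overlap in every panel except that of N, where SamS_OE samples run from 7.75 to 9.73 TPM and controls from 6.92 to 7.26 TPM.

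The ligand gene Dl (FBgn0000463, chromosome 3R, 19302731 to 19326217, minus strand) differed little between the groups. It was at 49.8, 59.5 and 57.9 TPM in SamS_OE replicates 1, 2 and 3, against 56.0, 51.7 and 61.1 TPM in control replicates 1, 2 and 3. SamS_OE replicate 1 was the lowest of the 6 and control replicate 3 the highest, and the groups overlapped. The log2 difference was -0.02 (SE 0.09, limma adjusted p = 0.995), with a 95% interval from -0.22 to 0.19, or from 0.860-fold to 1.14-fold.

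Neuralized, an E3 ubiquitin ligase that promotes endocytosis of Delta in the signalling cell, is encoded by neur (FBgn0002932, 3R, 9020348 to 9039471, minus strand). Its level was 33.2, 35.5 and 40.2 TPM in SamS_OE replicates 1, 2 and 3, and 37.3, 30.9 and 37.8 TPM in the controls in the same order. The highest value was in SamS_OE replicate 3 and the lowest in control replicate 2, so the groups overlapped. Between the groups the log2 difference was 0.04 (SE 0.10, limma adjusted p = 0.977), with a 95% interval from -0.20 to 0.27. The annotation places an antisense RNA, asRNA:CR31429, over exons of neur. The libraries were stranded, but whether counting used the strand was not given in the sources used here.

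The receptor gene N (FBgn0004647, X, 3134870 to 3172221, plus strand) was the only gene of the 10 whose groups did not overlap. It was at 9.73, 8.41 and 7.75 TPM in SamS_OE replicates 1, 2 and 3, against 6.92, 7.22 and 7.26 TPM in control replicates 1, 2 and 3. All 3 SamS_OE samples were above all 3 controls, and the SamS_OE samples were the more spread out. The means were 8.63 ± 1.01 TPM in SamS_OE and 7.13 ± 0.19 TPM in controls (SD, n = 3 each), a ratio of 1.21. The log2 difference was 0.24 (SE 0.11) with a limma adjusted p of 0.800, an unadjusted p of 0.0618 and a 95% interval from -0.01 to 0.49. The unadjusted p was 0.0260 without the trend in eBayes and 0.0342 without SamS_OE replicate 3, and 0.0616 to 0.196 in the other alternatives, while the adjusted p ran from 0.568 to 1.00 over all 13. The log2 difference of N within batches 1, 2 and 3 was 0.44, 0.20 and 0.08. In the authors' deposited table the log2 fold change of N was 0.28, with an unadjusted p of 0.00684 and an FDR of 0.430.

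Groups did not overlap in 11.9% of all tested features, and in 6.25% with SamS_OE above control, so 1 of 10 is close to the background. N is also a low gene. Among the 1322 tested features with a mean of 1 to under 10 TPM, 14.4% had SamS_OE above control without overlap. Features in that range leaned upward in general, with 69.2% above 0 and a median log2 difference of 0.0985. The corresponding median was -0.0161 for features from 10 to under 100 TPM and -0.0302 for those of at least 100 TPM. Leaving out SamS_OE replicate 1 moved the log2 difference of N to 0.16. That library also had the highest summed level of the 21 follicle cell markers (29823 TPM, beside 20016 and 18297 TPM in the other SamS_OE samples and 21366 to 24008 TPM in the controls). It had the highest sum of the 11 muscle markers as well, 232.8 TPM beside 155.2 and 209.7 TPM in the other SamS_OE samples and 160.8 to 216.2 TPM in the controls. The part of either in the result for N was not tested.

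Fringe, a glycosyltransferase that extends sugars on Notch and so changes which ligands it answers to, is encoded by fng (FBgn0011591, 3L, 20925891 to 20949512, minus strand). The fng transcript was at 8.90, 10.1 and 7.58 TPM in SamS_OE replicates 1, 2 and 3 and at 9.04, 9.59 and 7.98 TPM in controls 1, 2 and 3. Replicate 2 was the highest and replicate 3 the lowest in both groups. For fng the log2 difference was -0.0043 (SE 0.13, limma adjusted p = 1.00), with a 95% interval from -0.29 to 0.29, and it was -0.10 under quantile normalization. The mean log2 CPM in the authors' deposited table was 3.42 for fng and 5.66 for N, so at a like TPM the value of N rested on more reads, N having much the longer transcripts (9611 to 10150 bases, beside 1959 for fng). The overlapping gene on the other strand, CG10589, was listed at 0 in all samples.

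Both cleavage enzymes had steady levels. Kuzbanian, the ADAM protease that cuts Notch at the cell surface, is encoded by kuz (FBgn0259984, 2L, 13550139 to 13639411, plus strand). Its level was 51.7, 56.1 and 49.8 TPM in SamS_OE replicates 1, 2 and 3, against 54.3, 49.7 and 56.2 TPM in controls 1, 2 and 3. The values of the groups covered nearly the same range, and the log2 difference was -0.02 (SE 0.07, limma adjusted p = 0.978). Its 95% interval ran from -0.18 to 0.14. Presenilin, the catalytic subunit of gamma-secretase, is encoded by Psn (FBgn0284421, 3L, 20432468 to 20435156, plus strand). Psn was at 63.7, 66.9 and 66.3 TPM in SamS_OE replicates 1, 2 and 3 and at 66.0, 66.5 and 74.4 TPM in controls 1, 2 and 3. Control replicate 3 stood above the 5 other samples, which lay within 63.7 to 66.9 TPM. The log2 difference of Psn was -0.07 (SE 0.06, limma adjusted p = 0.948), with a 95% interval from -0.21 to 0.07, the narrowest of the 10. Exons of Psn overlap those of mRpL15 on the other strand, which was at 82.6 to 89.8 TPM.

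The nuclear pair varied together across samples, but this was not particular to the pair. Pearson's r of log2(TPM + 1) was 0.91 between Su(H) and H, beside 0.97 between Dl and H and 0.96 between Dl and Su(H). With Dl, 10.1% of tested features had r above 0.9. Su(H), the DNA-binding protein through which Notch acts on its targets (FBgn0004837, 2L, 15039488 to 15043334, plus strand), was at 19.5, 22.8 and 22.7 TPM in SamS_OE replicates 1, 2 and 3. In control replicates 1, 2 and 3 it was at 22.5, 19.1 and 24.1 TPM. Hairless (FBgn0001169, 3R, 20621938 to 20628915, plus strand) was at 64.7, 78.1 and 75.4 TPM in SamS_OE and at 75.4, 70.4 and 83.5 TPM in controls, in the same order. For both genes SamS_OE replicate 1 and control replicate 2 were the 2 lowest samples, and control replicate 3 was the highest. The log2 difference was -0.01 for Su(H) (SE 0.11, limma adjusted p = 0.995) and -0.07 for H (SE 0.09, limma adjusted p = 0.949). The 95% intervals ran from -0.25 to 0.23 for Su(H) and from -0.28 to 0.13 for H. The ratio of the H transcript to that of Su(H) in TPM averaged 3.35 ± 0.06 in SamS_OE and 3.50 ± 0.17 in controls (SD, n = 3 each). The means differed by less than the SD of the controls but by more than that of SamS_OE. The groups overlapped, and the ratio was not tested.

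The transcripts that mark the switch were low, and in the SamS_OE samples they were the 2 most variable of the 10. The coefficient of variation of ct was 27.9% in SamS_OE and 11.0% in controls, and that of peb was 20.2% in SamS_OE and 5.42% in controls. In controls they were not set apart, with 11.7% for Su(H) and 10.8% for neur. The gene ct (FBgn0004198, X, 7609148 to 7678859, plus strand), whose homeodomain protein marks mitotic follicle cells, was at 1.79, 1.19 and 1.09 TPM in SamS_OE replicates 1, 2 and 3. In control replicates 1, 2 and 3 it was at 1.12, 0.91 and 0.96 TPM. SamS_OE replicate 1 stood alone, and SamS_OE replicate 3 lay just under control replicate 1. The log2 difference was 0.23 (SE 0.19, limma adjusted p = 0.934), with a 95% interval from -0.21 to 0.67, the widest of the 10. Within batches 1, 2 and 3 it was 0.40, 0.20 and 0.09, and without SamS_OE replicate 1 the estimate was 0.10. In the authors' deposited table ct had a log2 fold change of 0.45, with an unadjusted p of 0.0350 and an FDR of 0.983.

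The gene peb (FBgn0003053, X, 4617564 to 4627206, plus strand), which encodes Hindsight, was at 10.3, 11.4 and 7.56 TPM in SamS_OE replicates 1, 2 and 3. In control replicates 1, 2 and 3 it was at 8.89, 9.18 and 8.25 TPM. The SamS_OE samples thus lay on both sides of the controls. The log2 difference was 0.12 (SE 0.14, limma adjusted p = 0.948), with a 95% interval from -0.21 to 0.45, and within batches 1, 2 and 3 it was 0.19, 0.28 and -0.11. Without SamS_OE replicate 2 it was 0.0090 and without SamS_OE replicate 3 it was 0.27, so leaving out either library changed its size. The unadjusted p without SamS_OE replicate 3 was 0.0402, with an adjusted p of 0.662 in limma, in a range of adjusted p from 0.662 to 1.00 over the 13 alternatives. As a level, ct was a small fraction of peb: the ratio of ct to peb in TPM was 0.174, 0.105 and 0.144 in SamS_OE replicates 1, 2 and 3, against 0.126, 0.0991 and 0.116 in controls 1, 2 and 3. SamS_OE replicates 1 and 3 were the 2 highest, SamS_OE replicate 2 lay among the controls, and no test was made of this ratio.

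**Figure D3:**
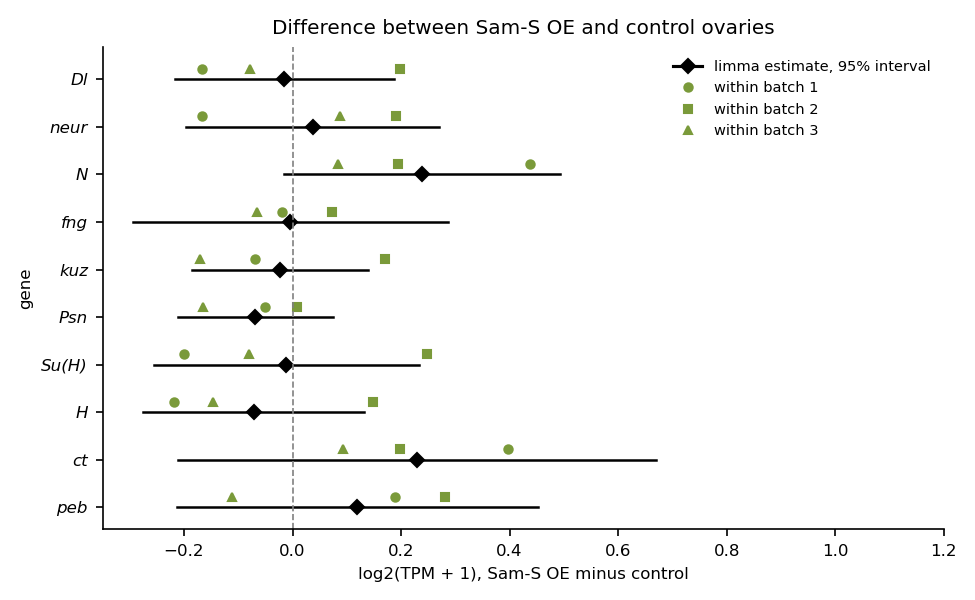
Difference in log2(TPM + 1), SamS_OE minus control, for each of the 10 genes: the black diamond and line give the limma estimate with its 95% interval and the green markers the difference within each batch. Every interval includes 0, and the batch values lie above 0 in all 3 batches for N and ct.

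Some of the 10 genes varied alike over the 6 samples, and these correlations mix differences between the groups with those within them. Over the 6 samples, Pearson's r of log2(TPM + 1) was 0.97 between Dl and H, 0.96 between Dl and Su(H) and 0.91 between Su(H) and H. These were the 3 pairs of 45 with r above 0.9. N and ct had r = 0.90 with each other, and fng and peb r = 0.87. Between these sets r was mostly negative, with -0.67 for H and ct and -0.59 for N and H, and 22 of the 45 pairs were below 0. These values describe 6 libraries that share the same TPM scaling, in which a larger share for some genes lowers the others. The likeness was wide for Dl: 10.1% of tested features had r above 0.9 with it, beside 1.15% for N, 0.56% for ct and 0.395% for peb.

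**Figure D4:**
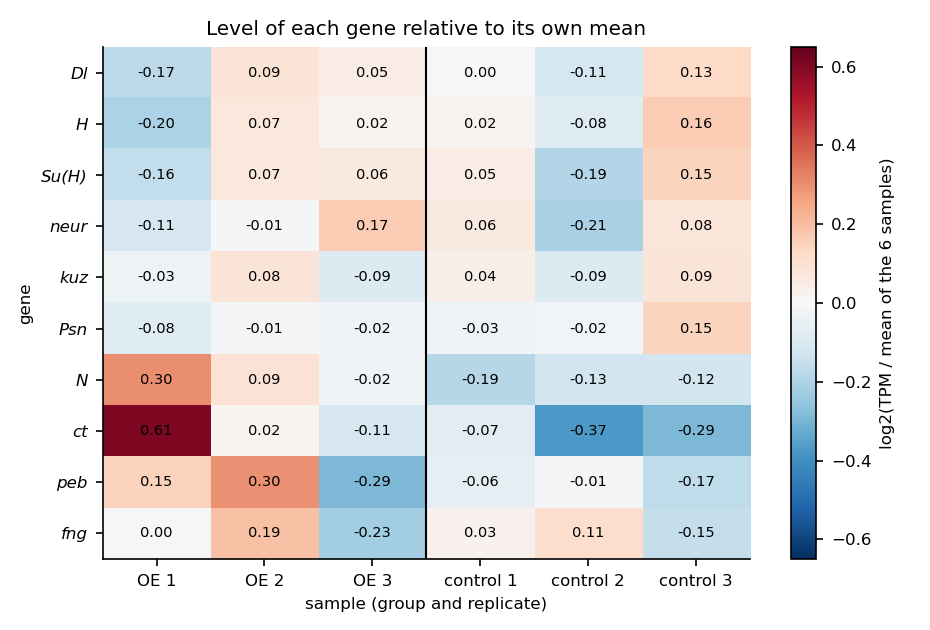
Level of each gene in each sample as log2 of its TPM over its own mean of the 6 samples, SamS_OE samples left of the line and controls right of it. Dl, H and Su(H) share low values in SamS_OE replicate 1 and control replicate 2, while N and ct are highest in SamS_OE replicate 1.

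The features most like a gene over the 6 samples were named by the highest Pearson's r. For N these were CG9727 (r = 0.99, at 26.2 to 32.3 TPM) and a, the gene arc (r = 0.98, at 11.4 to 14.2 TPM). For Dl they were Xbp1, which encodes a transcription factor of the unfolded protein response, and CG12054, each with r = 0.996. For ct they were snoRNA:Psi28S-3436a and Act42A, a cytoplasmic actin gene, each with r = 0.98. For peb they were GstE6, a glutathione S-transferase gene (r = 0.98), and CG9932 (r = 0.97). With 6 samples, high r values arise among many features, so these are descriptions of the libraries.

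Around the 10 genes, 67 further genes of the pathway and of the switch were taken from 6 lists. Of these, 50 were tested and 17 had a mean under 1 TPM. In limma, 0 of the 50 passed an adjusted p of 0.05 and 3 had an unadjusted p under 0.05, beside 6.58% of all tested features. Of the 67, in the authors' deposited table, 0 had an FDR under 0.05, and 4 of the 50 had an unadjusted p under 0.05. The 50 had a median log2 difference of -0.0073, with 22 above 0 and 28 below, where 44.0% of all tested features lay above 0. The groups did not overlap in 4 of the 50, beside 11.9% of all tested features.

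Among genes for ligands and their activation, 6 of 7 were tested, 3 above 0 and 3 below, with a median log2 difference of 0.01. The second Notch ligand, Ser, was at 0.01 TPM in both groups, so Dl was the ligand transcript detected at a substantial level. The most abundant were lqf, which encodes the endocytic adaptor epsin (82.6 ± 2.76 TPM in SamS_OE and 80.6 ± 4.53 TPM in controls), mib2 (67.3 ± 3.00 TPM in SamS_OE and 71.2 ± 3.36 TPM in controls), aux, which encodes auxilin (61.8 ± 2.96 TPM in SamS_OE and 62.3 ± 2.80 TPM in controls; SD, n = 3 each), and Dl.

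For the receptor's glycosylation and cleavage, 11 of 13 genes were tested, 3 above 0 and 8 below, with a median of -0.02. Of all tested features, 44.0% lay above 0. The other gamma-secretase subunits were near the level of Psn: Nct was at 97.4 ± 9.57 TPM in SamS_OE and 97.4 ± 3.73 TPM in controls, and aph-1 at 66.7 ± 8.72 TPM in SamS_OE and 71.3 ± 1.01 TPM in controls (SD, n = 3 each). The gene O-fut1, whose product adds the fucose that Fringe extends, was at 84.4 ± 7.89 TPM in SamS_OE and 89.9 ± 5.22 TPM in controls. By the mean over the 6 samples the receptor transcript was thus the least abundant of the 11 tested in this list. Next to it was fng, which exceeded N in 4 of 6 samples. Tace and Kul, which encode other surface proteases, had means under 1 TPM.

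Of 13 trafficking regulators 12 were tested, 7 above 0 and 5 below, with a median of 0.01. The most abundant were Rab5, Nedd4, AP-2alpha and Su(dx). Rab5, the early endosome GTPase, was at 202.9 ± 5.81 TPM in SamS_OE and 199.6 ± 6.84 TPM in controls. Nedd4 was at 147.5 ± 11.7 TPM in SamS_OE and 151.9 ± 8.09 TPM in controls, and AP-2alpha at 119.6 ± 7.83 TPM in SamS_OE and 124.4 ± 9.01 TPM in controls. Su(dx), like Nedd4 a ubiquitin ligase that acts on Notch, was at 108.9 ± 4.55 TPM in SamS_OE and 111.3 ± 3.17 TPM in controls (SD, n = 3 each).

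All 12 genes of the nuclear complex were tested, 3 above 0 and 9 below, with a median of -0.04. Of all tested features, 44.0% lay above 0, and of those with a mean of at least 100 TPM, 32.9%. The co-repressors that Hairless recruits were abundant: CtBP was at 257.0 ± 24.0 TPM in SamS_OE and 264.2 ± 14.7 TPM in controls, and gro at 170.3 ± 12.3 TPM in SamS_OE and 177.1 ± 11.2 TPM in controls. CoRest was at 134.9 ± 16.4 TPM in SamS_OE and 153.1 ± 8.36 TPM in controls, and Bx42 at 133.1 ± 9.22 TPM in SamS_OE and 137.1 ± 7.90 TPM in controls (SD, n = 3 each). The log2 difference of CoRest was -0.19 (limma adjusted p = 0.820, unadjusted p = 0.0690), and in the authors' deposited table its unadjusted p was 0.0249.

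The list of E(spl) and Bearded family genes, which includes classic targets of Notch and also holds Hey, was mostly under 1 TPM in ovary RNA. Of 14 genes, 5 were listed at 0 in all 6 samples, 11 stayed under 1 TPM in every sample and 2 were tested. The transcript with the highest level was E(spl)m3-HLH, which encodes a bHLH repressor, at 7.05, 6.02 and 7.40 TPM in SamS_OE replicates 1, 2 and 3 against 3.88, 5.90 and 3.21 TPM in controls 1, 2 and 3. The groups did not overlap, but SamS_OE replicate 2 and control replicate 2 were almost equal. Its log2 difference of 0.58 was the largest of the pathway genes tested here and did not pass (limma adjusted p = 0.549, unadjusted p = 0.0153). Like N, E(spl)m3-HLH lies in the range of 1 to under 10 TPM. In that range 69.2% of tested features were above 0, and 14.4% had SamS_OE above control without overlap. In the authors' deposited table the unadjusted p of E(spl)m3-HLH was 0.00640 and its FDR 0.420. E(spl)mbeta-HLH was at 3.84, 4.18 and 5.12 TPM in SamS_OE and at 3.83, 3.64 and 4.37 TPM in controls, and the groups overlapped. E(spl)m7-HLH was at 0.69 ± 0.47 TPM in SamS_OE and 0.76 ± 0.35 TPM in controls, and E(spl)malpha-BFM at 0.43 ± 0.26 TPM in SamS_OE and 0.21 ± 0.07 TPM in controls (SD, n = 3 each). Summed over the 14 genes, the list was at 12.3, 12.4 and 13.5 TPM in SamS_OE replicates 1, 2 and 3. In controls 1, 2 and 3 the sum was 8.71, 11.1 and 8.23 TPM. Most of it came from E(spl)m3-HLH and E(spl)mbeta-HLH.

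Of 18 genes tied to the switch from mitosis to endocycles, ct and peb included, 17 were tested, 8 above 0 and 9 below, with a median of -0.0024. The most abundant were the mitotic cyclins CycB (2602 ± 133.5 TPM in SamS_OE and 2724 ± 91.9 TPM in controls) and CycA (1025 ± 82.1 TPM in SamS_OE and 1094 ± 38.3 TPM in controls; SD, n = 3 each). The gene stg, the Cdc25 phosphatase that Notch shuts off at the switch, was at 288.3 ± 36.1 TPM in SamS_OE and 306.5 ± 22.4 TPM in controls. Dp, the partner of E2F, was at 241.9 ± 5.38 TPM in SamS_OE and 259.7 ± 7.41 TPM in controls, with a log2 difference of -0.10 (limma adjusted p = 0.751, unadjusted p = 0.0466). These maternal transcripts are also loaded into the egg by the germline, and whole ovaries do not separate the cell types.

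Chosen after their values were seen, fzr and ci were the other genes of the switch list whose groups did not overlap. The gene fzr, the APC/C activator that Notch turns on for endocycles, was at 49.3, 45.1 and 44.5 TPM in SamS_OE replicates 1, 2 and 3 against 39.8, 42.7 and 43.6 TPM in controls 1, 2 and 3. Its log2 difference was 0.14 (limma adjusted p = 0.829). The gene ci, the Hedgehog pathway transcription factor, was at 5.94, 5.79 and 6.25 TPM in SamS_OE and 4.75, 5.28 and 4.22 TPM in controls, with a log2 difference of 0.29 (limma adjusted p = 0.736, unadjusted p = 0.0428). It too lies in the range of 1 to under 10 TPM, where 14.4% of tested features had SamS_OE above control without overlap. The lowest log2 difference of the pathway genes tested was that of CycE, the cyclin that drives DNA replication, also named after its values were seen. CycE was at 161.9, 207.3 and 200.4 TPM in SamS_OE replicates 1, 2 and 3 against 218.2, 200.1 and 234.0 TPM in controls 1, 2 and 3, and the groups overlapped. Its log2 difference was -0.20 (limma adjusted p = 0.834, unadjusted p = 0.0764), and its unadjusted p in the authors' deposited table was 0.0196. None of fzr, ci and CycE passed the threshold.

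**Figure D5:**
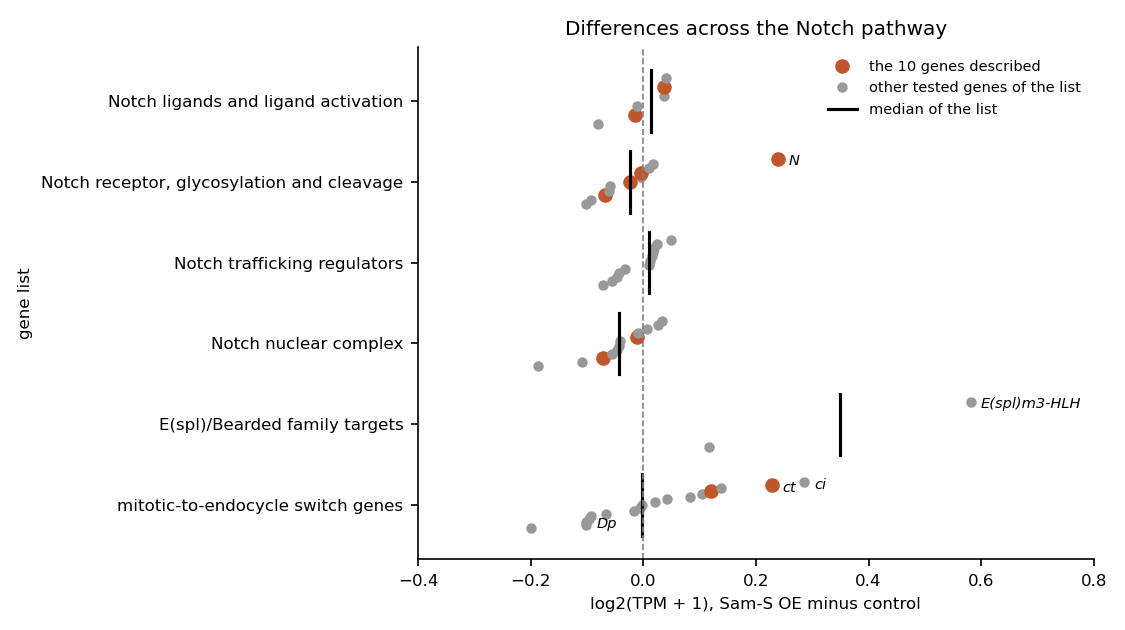
Difference in log2(TPM + 1), SamS_OE minus control, of each tested gene in the 6 Notch pathway lists, with the 10 genes described in orange, the others in grey and the median of each list as a black bar. Most points lie within 0.2 of 0; E(spl)m3-HLH is farthest to the right at 0.58, and none of the points passed the adjusted threshold.

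Markers of other cell types were counted in the same fit, and 0 of the 41 tested markers in 4 lists passed an adjusted p of 0.05 in limma, with 6 under an unadjusted 0.05, beside 6.58% of all tested features. The follicle cell list had 10 of 19 tested genes above 0, with log2 differences from -0.34 to 0.37. The muscle sheath list had 9 of 9 above 0, beside 44.0% of all tested features, with log2 differences from 0.03 to 0.29. Of these 9 only bt, named after its values were seen, had groups that did not overlap. It was at 1.76, 1.5 and 1.55 TPM in SamS_OE and 1.29, 1.17 and 1.15 TPM in controls (limma adjusted p = 0.909). In the authors' deposited table its unadjusted p was 0.000489 and its FDR 0.0633. In its range of 1 to under 10 TPM, 69.2% of tested features lay above 0. The germline list had 6 of 11 above 0 and 5 below (vas, nos, gcl, bcd and otu), with log2 differences from -0.10 to 0.18. Of the 6 markers under an unadjusted 0.05, 4 were osk, orb, aub and piwi of the germline list, named after their values were seen. Whole ovaries do not separate the cell types, so their place on that list does not assign these differences to the germline. In each of these 4 SamS_OE lay above control without overlap, beside 6.25% of all tested features. Their log2 differences were 0.13 for osk and for orb, 0.18 for aub and 0.14 for piwi, with limma adjusted p of 0.580, 0.622, 0.549 and 0.585 in that order. The other 2 were the yolk protein genes Yp2, at 0.37, and Yp3, at -0.34, with groups that overlapped. The part of these markers in the results for the 10 genes was not tested. The summed level was 18297 to 29823 TPM in SamS_OE and 21366 to 24008 TPM in controls for follicle cell markers, most of it from the eggshell and yolk genes Vm26Aa, Cp38, Yp2 and Cp36. It was 2886 to 2944 TPM in SamS_OE and 2782 to 2850 TPM in controls for germline markers, led by osk, otu, vas and nos. For muscle it was 155.2 to 232.8 TPM in SamS_OE and 160.8 to 216.2 TPM in controls, led by Act57B, up, wupA and Tm2. Of the 7 haemocyte and fat body markers, Fbp1 and Lsp1alpha were listed at 0 in all samples and Hml was at 0.02 to 0.05 TPM, while srp and Pxn held nearly all of the summed 25.8 to 39.2 TPM in SamS_OE and 30.03 to 32.2 TPM in controls.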

How the data were processed

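The values are TPM computed by the authors and rounded to 2 decimals, with 1 deposited column per sample and no pooling. STAR is named in the submitters' processing notes, while the quantification tool, genome build and annotation were not given in the sources used here. Extraction was with Trizol and libraries were stranded TruSeq mRNA libraries, per the labels' protocols. The deposited table also holds the authors' comparison with its FDR, its p-value, the mean log2 CPM and the log2 fold change, from a tool not given in the sources used here. No value column was left without a sample (0).

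Values were tested as log2(TPM + 1) with limma 3.58.1 in R 4.3.3 (lmFit, then eBayes with a mean-variance trend), with a term for the group, all 6 samples and the 7855 features that averaged 1 TPM or more. The p-values are two-sided, with Benjamini-Hochberg adjustment over these features and 0.05 as the threshold. Python 3.11.15, pandas 2.3.3, numpy 2.4.6 and matplotlib 3.10.9 were used for the rest. The fit was also run on simulated data with noise drawn independently for each feature, and nothing reported here rests on that run.

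Coordinates are those of the deposited table. In the Ensembl annotation of BDGP6.54, which gave transcript lengths and overlaps, 9 of the 10 genes had the same position, and ct began further upstream. The 10 genes and all lists were chosen with earlier results of these data known. Genes named beyond the 10 were Sam-S, list genes past the threshold (0 genes), the 4 of highest mean TPM in each list, and the 2 features of highest r with N, Dl, ct and peb; others are said to be chosen after their values were seen, or are defining markers and genes at or near 0. Samples with the same number share a labelled batch. The deviations of same-numbered samples from their group means correlated at -0.06, -0.06 and 0.21 for numbers 1, 2 and 3, and those of other pairs at -0.23 to 0.26. The alternatives were a pseudocount of 0.1, no filter, a mean TPM of at least 5, quantile normalization and trimmed mean scaling. That scaling trimmed 30% of log ratios and 5% of levels at each end. The others were omitting the trend from eBayes, the batch as a block, and omitting each sample. A count test was not used because TPM values are not counts.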

Additional observations from a re-analysis of the deposited data

How the results depend on the processing

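Under all 13 alternatives the count of Notch genes passing the threshold stayed at 0 of those tested, as did that of the pathway lists, and with the batch as a replicate block it was also 0 (16 of all features passed in the blocked fit, against 22 without the block, and no call on the 10 genes changed). The log2 differences of N, Psn, ct and peb kept their direction, with N between 0.16 and 0.31, ct between 0.10 and 0.38 (not tested at a mean TPM of at least 5), Psn between -0.10 and -0.014 and peb between 0.0090 and 0.27. Those of the other 6 genes changed sign in at least 1 alternative. Under quantile normalization Dl was 0.0060, and fng, at -0.0043 as reported, was -0.10. Leaving out a sample gave -0.073 to 0.062 for Dl (sign changed without SamS_OE replicate 1 or control replicate 3), -0.054 to 0.098 for neur (without SamS_OE replicate 3 or control replicate 2) and -0.095 to 0.093 for fng (without SamS_OE replicate 3, control replicate 1 or control replicate 2). It gave -0.073 to 0.014 for kuz (without SamS_OE replicate 3 or control replicate 3), -0.10 to 0.061 for Su(H) (without SamS_OE replicate 1, control replicate 1 or control replicate 3) and -0.13 to 0.0092 for H (without SamS_OE replicate 1). The background count of 22 features was 13 when low values were not filtered and 11 to 27 when a sample was left out, lowest without control replicate 1 (11) and control replicate 3 (14). E(spl)m3-HLH stayed between 0.43 and 0.78, ci between 0.17 and 0.35, fzr between 0.092 and 0.17 and Dp between -0.12 and -0.074. CycE stayed between -0.27 and -0.090, CoRest between -0.25 and -0.085, and osk, orb, aub and piwi of the germline list between 0.086 and 0.21. None of these genes passed in any alternative. What causes these shifts was not tested. Without the depth, the noise of ct at about 1 TPM cannot be set against counting error. The mean log2 CPM in the authors' deposited table was 2.97 for ct, beside 3.42 for fng. Transcripts of ct have 10438 to 11755 bases, beside 1959 for fng.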

Other observations

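The 3 genes of the 10 on chromosome X, namely N, ct and peb, were the 3 with the largest positive log2 differences (median 0.23), while the 7 on autosomes had a median of -0.0153 and 1 of the 7 was above 0. The median of 0.23 is the value of ct, whose control mean was 0.997 TPM. That gene met the filter through the SamS_OE samples, so its being tested depended on the group where it is higher. As a background looked up after these values were seen, the median over the 1412 tested features on X was -0.0071, and that over the 6370 on chromosome arms 2L, 2R, 3L and 3R was -0.0136. In the range of 1 to under 10 TPM, where all 3 genes lie, the median was 0.114 for the 246 features on X and 0.0954 for the 1051 on the other 4 arms, with 68.3% and 69.6% of features above 0.

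Of the 17 pathway genes under the filter, 9 had a higher mean in SamS_OE, 2 a lower one and 1 an equal one, and 5 were listed at 0 in all samples. For all features under the filter the corresponding shares were not computed, so these counts have no background and are not a result about the pathway. Among tested features of 1 to under 10 TPM, 69.2% lay above 0 and 14.4% had SamS_OE above control without overlap. E(spl)m2-BFM and Tace are named because they were the 2 of the 17 whose groups did not overlap, so they were picked by their values. E(spl)m2-BFM was at 0.28, 0.34 and 0.26 TPM in SamS_OE replicates 1, 2 and 3 against 0.00, 0.16 and 0.09 TPM in controls 1, 2 and 3. Tace was at 0.35, 0.34 and 0.31 TPM in SamS_OE against 0.22, 0.18 and 0.17 TPM in controls. In the authors' deposited table neither had an unadjusted p under 0.05.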
